A study of Mus musculus with 12 samples.

Results

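The proteasome genes are the 51 mouse protein-coding genes whose symbols begin with Psma, Psmb, Psmc, Psmd, Psme, Psmf or Psmg followed by a digit. They were taken from 21738 protein-coding genes of the GENCODE vM39 annotation by name alone. No measured value decided which genes are members, but the set was chosen with earlier results of these data known. The peaks come from c-Kit+ mouse bone marrow cells, labelled as hematopoietic stem and progenitor cells with the genotype entered as mock. Every sample, the vector controls included, received a retrovirus for BAP1, so no library shows cells without added BAP1. A second retrovirus carried ASXL1 or was empty. In the 1-590 set it carried ASXL1 residues 1 to 590, the form 10RA, which the labels call condensation-impaired, the form 25RA, which they call condensation-defective, or nothing. In the 1-1067 set it carried residues 1 to 1067, the 34DN or the 36EQ form, both called charge-neutralized, or nothing. CUT&RUN for H2AK119ub covered all 8 of these conditions, and ChIP-seq for BAP1 and for ASXL1 covered 1-590 and 10RA. Each condition has 1 library, so differences between conditions have no replicate check and carry no p-value. Strain, age and sex of the mice, and whether marrow was pooled, are not given in the sources used here. Peak lists do not measure expression, so the labelled cell type was not checked against marker genes.

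The proteasome is the large protease that degrades proteins tagged with ubiquitin chains. Its barrel-shaped 20S core is built of alpha rings, which gate the entrance, and beta rings, which hold the catalytic sites. A 19S cap recognises the ubiquitin chain, removes it and unfolds the substrate with a ring of ATPases. Interferon replaces the catalytic beta subunits with immunoproteasome forms, and alternative activators can take the place of the 19S cap. BAP1 is a deubiquitinase that takes ubiquitin off a lysine near the end of histone H2A (the H2AK119ub mark), ASXL1 is its cofactor, and Polycomb repressive complex 1 adds the mark. The ubiquitin on H2A is a single signalling unit and is not the chain that the proteasome reads. Proteasome subunits are needed by every cell, and the transcription factor NRF1 (Nfe2l1) raises their genes together when the proteasome is short.

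Sequence directly upstream of the transcription start site (TSS) is shown for the 3 constitutive catalytic beta subunits, because their H2AK119ub peak listings differed, and for Psmc6, whose peak was among the strongest. Each is the 200 bases before the canonical TSS, read 5′ to 3′ on the gene's strand of GRCm39, and none overlaps an annotated exon. Psmb5 is on the minus strand at chr14:54855482-54855681, Psmb6 on the plus strand at chr11:70415983-70416182, Psmb7 on the minus strand at chr2:38534100-38534299 and Psmc6 on the plus strand at chr14:45567015-45567214. Capitals in Psmb5 and Psmb6 mark a match to TGACNNNGC, a short form of the antioxidant response element to which NRF1 binds. Psmb7 has no such match in this window and has no capitals. Capitals in Psmc6 mark the 17 bases between the outermost of its 4 H2AK119ub summits. The Psmc6 sequence also holds a TGACNNNGC match on the other strand, which is left in lower case.
Psmb5: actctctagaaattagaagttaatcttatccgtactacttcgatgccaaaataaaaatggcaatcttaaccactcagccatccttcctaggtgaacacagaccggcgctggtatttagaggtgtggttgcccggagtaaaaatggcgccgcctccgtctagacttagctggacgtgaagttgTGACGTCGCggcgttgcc
Psmb6: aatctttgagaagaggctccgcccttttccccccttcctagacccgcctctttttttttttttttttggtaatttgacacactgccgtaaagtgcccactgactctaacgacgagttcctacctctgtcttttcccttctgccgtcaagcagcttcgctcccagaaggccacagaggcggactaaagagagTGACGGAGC
Psmb7: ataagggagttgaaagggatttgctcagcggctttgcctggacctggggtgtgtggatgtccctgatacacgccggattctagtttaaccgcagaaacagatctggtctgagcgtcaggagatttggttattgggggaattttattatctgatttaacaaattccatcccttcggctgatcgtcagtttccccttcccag
Psmc6: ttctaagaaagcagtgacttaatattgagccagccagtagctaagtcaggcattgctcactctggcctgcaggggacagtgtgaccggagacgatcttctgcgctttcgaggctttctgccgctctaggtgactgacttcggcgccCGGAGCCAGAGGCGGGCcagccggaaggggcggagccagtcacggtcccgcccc
The TGACNNNGC match starts at position -18 in Psmb5 and -9 in Psmb6, counted back from the TSS. A match describes letters and is not evidence that a factor was bound.

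A peak list holds the places where fragments pile up above the local background, and a gene is called listed here when a peak overlaps its promoter, the 2 kb before and after its canonical TSS, by 1 base or more. A gene without a listed peak can still carry the mark. The H2AK119ub lists of the 1-590 set held 20124 (vector), 32495 (1-590), 28228 (10RA) and 33863 (25RA) peaks, and those of the 1-1067 set held 5307 to 6310. Peaks down to a p of 0.001 were kept whatever their q. In the 1-590 set 86.0% to 96.0% of peaks had a q of 0.05 or less, and in the 1-1067 set 22.8% to 32.7% did. Depth can be read from the lowest background in a list, in fragments per base, which was 0.908 for vector, 2.06 for 1-590, 1.72 for 10RA and 1.86 for 25RA. The 1-590 library thus had the highest background and the vector library the lowest in that set. In the 1-1067 set it ran from 2.17 to 2.92. Names written inside the lists for 25RA, 34DN and 36EQ use codes that differ from the sample titles, so the assignment of those libraries follows the titles.

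No proteasome gene had a promoter peak of BAP1 or ASXL1. The count was 0 of 51 in the BAP1 library with 1-590, where 0.363% of all genes were listed, and 0 of 51 in the BAP1 library with 10RA, where 0.552% were. It was 0 of 51 for ASXL1 with 1-590 (1.06% of all genes) and 0 of 51 for ASXL1 with 10RA (0.455% of all genes). A count of 0 of 51 allows a share of up to 5.88%, which lies above every one of these all-gene shares, so absence at proteasome genes was not distinguishable from the sparse listing of all genes. The nearest BAP1 peaks were 2727 bases from the TSS of Psma5, a 20S alpha subunit, in the 10RA library, and 7.55 kb from that of Psme3ip1 in the 1-590 library. The nearest ASXL1 peaks were 8.94 kb from Psmg2, a core assembly chaperone, in the 1-590 library and 11.6 kb from Psmd14, the deubiquitinase of the 19S cap, in the 10RA library. The median distance from a proteasome gene to the nearest peak ran from 138 kb to 270.0 kb over the 4 ChIP libraries. These ChIP lists were short, with 3572 to 8370 peaks, and 10.6% to 16.9% of their peaks had a q of 0.05 or less. The labels disagree on the antibody, naming BAP1 and ASXL1 in the descriptions and the HA tag in the protocols.

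H2AK119ub peaks were listed at most proteasome promoters in the 1-590 set. The vector library listed 32 of 51 (62.7%, Wilson 95% interval 49.0 to 74.7), where 40.5% of all genes were listed. The 1-590 library listed 45 of 51 (88.2%, 76.6 to 94.5), where 55.2% of all genes were listed. The 10RA library listed 29 of 51 (56.9%, 43.3 to 69.5; all genes 41.3%) and the 25RA library 35 of 51 (68.6%, 55.0 to 79.7; all genes 47.8%). The 1-590 library thus listed the most proteasome genes and the 10RA library the fewest. Among peaks with a q of 0.05 or less the counts were 32 (38.2% of all genes), 45 (54.8%), 28 (40.1%) and 35 (46.9%) in vector, 1-590, 10RA and 25RA. The intervals cover counting error only.

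**Figure D1:**
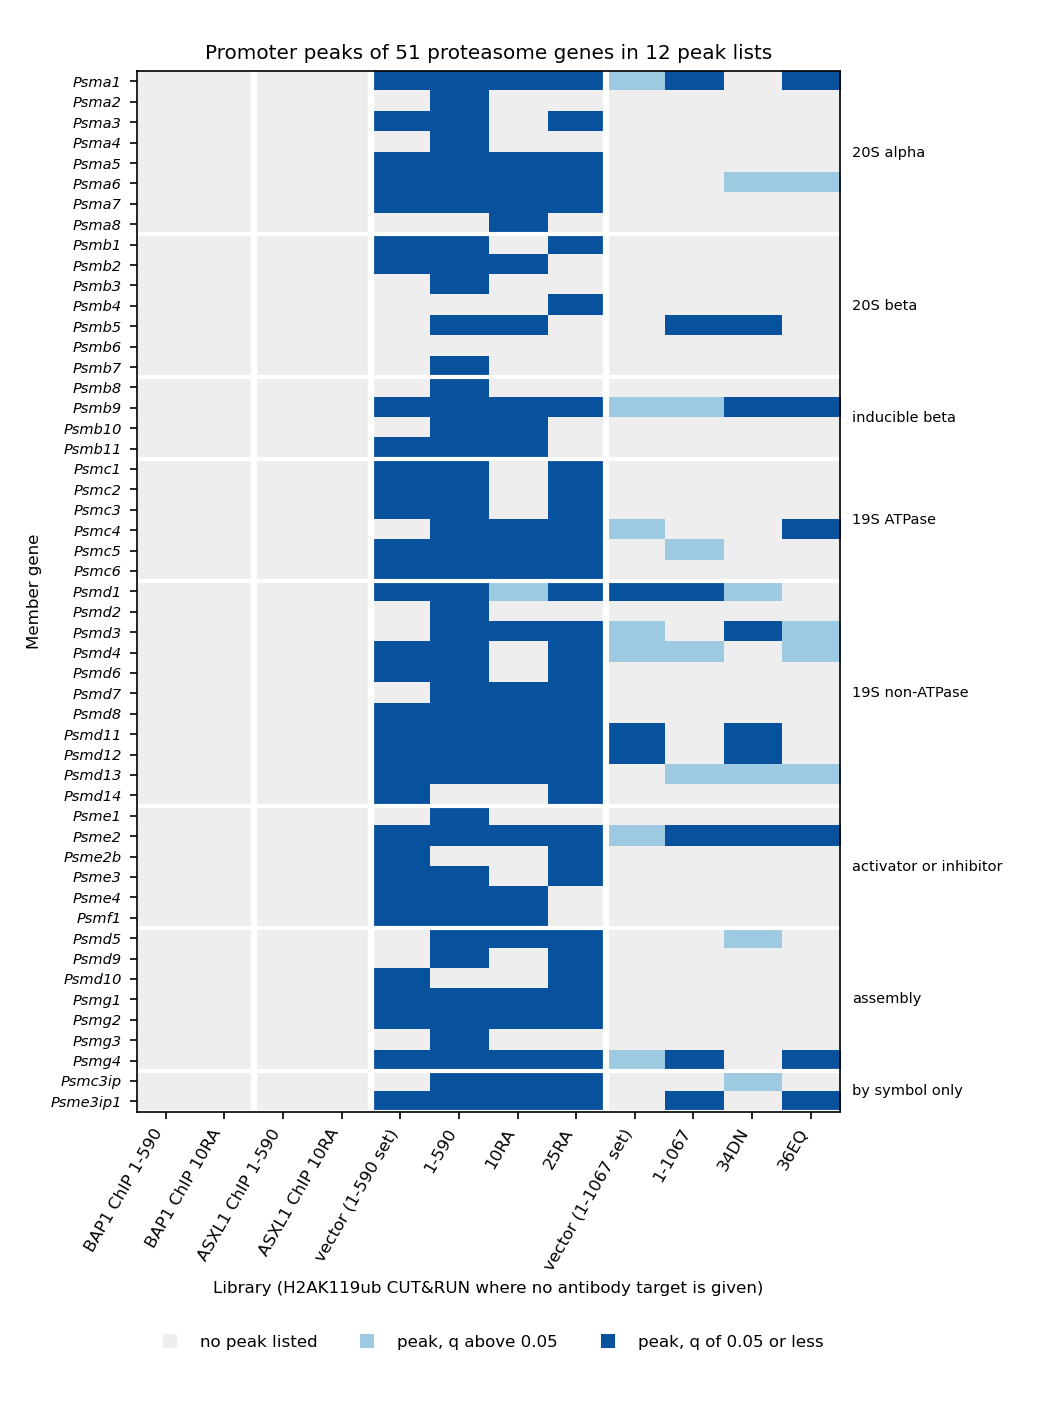
Each row is 1 proteasome gene, grouped by role, and each column 1 of the 12 libraries; dark blue marks a promoter peak with q of 0.05 or less, light blue a peak with a higher q and grey no listed peak. The 4 ChIP columns are empty, the 1-590 column has 45 of 51 genes filled, and light blue is common only in the 4 columns of the 1-1067 set.

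Promoter base composition was set beside these shares, and whether it accounts for them was not tested. A promoter was called CpG-rich when the window reaching 500 bases to each side of the TSS had a CpG observed over expected ratio of at least 0.6 and a GC content of at least 50%. By this rule 40 of 51 proteasome genes (78.4%) were CpG-rich, against 46.1% of all genes. Against the 10012 CpG-rich genes the proteasome genes no longer stood above the rest in every library. The 40 CpG-rich members were listed at 65% against 67.2% of CpG-rich genes in vector, 95% against 87.3% in 1-590, 57.5% against 65.1% in 10RA and 75% against 74.5% in 25RA. Of the other 11 members, 6 were listed in the vector library, 7 in 1-590, 6 in 10RA and 5 in 25RA, where 17.6%, 27.8%, 21.1% and 25.1% of all such genes were listed. Those 11 were Psma8, Psmb6, Psmb8, Psmb10, Psmb11, Psmd1, Psmd10, Psme1, Psme2, Psme2b and Psmg4.

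**Figure D2:**
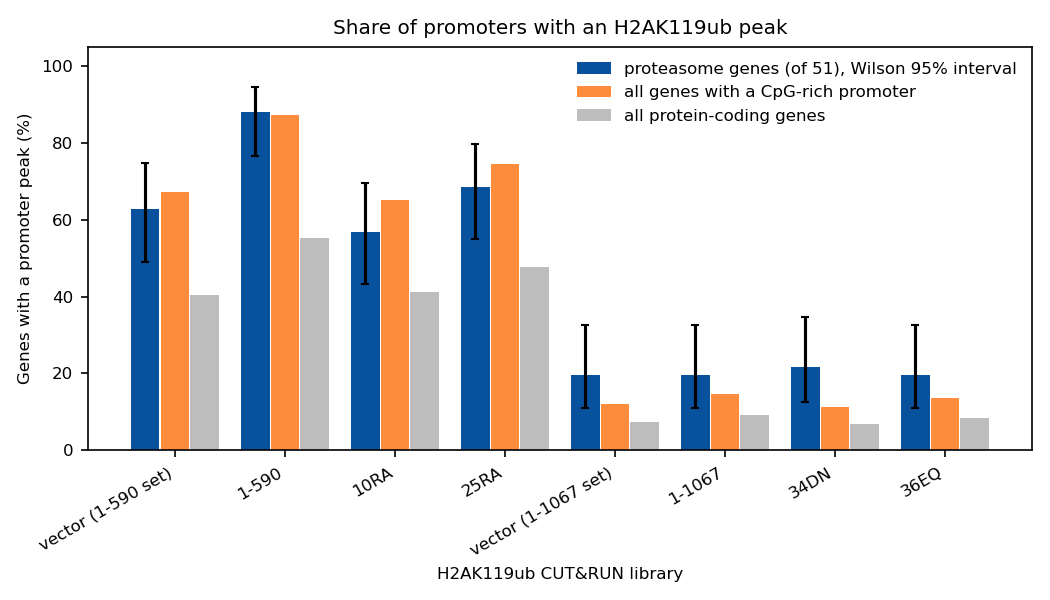
Bars give the percentage of genes with a promoter H2AK119ub peak in each of the 8 CUT&RUN libraries, for the 51 proteasome genes (with Wilson 95% intervals), for all genes with a CpG-rich promoter and for all protein-coding genes. In the 1-590 set the proteasome bars lie near those of the CpG-rich genes and above those of all genes, with 88.2%, 87.3% and 55.2% in the 1-590 library.

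The alpha ring genes were mostly listed. Of the 8 20S alpha genes, 5 were listed in the vector library, 7 in 1-590, 5 in 10RA and 5 in 25RA. Beside this and the following counts by role stand the all-gene shares of 40.5%, 55.2%, 41.3% and 47.8% in the same order of libraries. Psma1, Psma5, Psma6 and Psma7 were listed in all 4 libraries of the set. At Psma1 (chromosome 7) the summit held 17 fragments over a local background of 1.14 in vector, 27 over 2.23 in 1-590, 10 over 1.72 in 10RA and 14 over 1.93 in 25RA. Its fold, which is fragments plus 1 over background plus 1, was 8.40, 8.68, 4.04 and 5.13 in the same order. Fragments and fold rest on each library's own depth and background, so they are set side by side here and read only within a list. Psma7, which shares its promoter peak with the neighbour Ss18l1 42 bases away on the other strand, had 21, 41, 28 and 32 fragments and the highest background of the ring, 4.18 to 7.45. Psma3, with fold 8.60 in 1-590, was listed in vector and 25RA as well and not in 10RA. Psma2 and Psma4 were listed in 1-590 alone, with 13 and 16 fragments. Psma8, the alpha subunit of the testis-specific proteasome, was listed in 10RA alone, with 12 fragments over a background of 1.74 (fold 4.75) and the summit 224 bases into the gene, in an intron.

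The beta ring genes, like all genes, were listed in 1-590 more than in the other libraries of the set. Of the 7 constitutive beta genes, 2 were listed in the vector library, 5 in 1-590, 2 in 10RA and 2 in 25RA. Whether beta genes differ from alpha genes was not tested. The 3 catalytic subunits, whose upstream sequences are printed above, gave 3 different patterns. Psmb5, which carries the chymotrypsin-like activity, was listed in 1-590 with 26 fragments (fold 6.36) and in 10RA with 10 (fold 3.32), and in neither vector nor 25RA. Psmb7, which carries the trypsin-like activity, was listed in 1-590 alone with 11 fragments (fold 3.52) and the summit 194 bases into the gene, in a coding exon. Psmb6, which carries the caspase-like activity, was the only proteasome gene with no promoter peak in any of the 8 H2AK119ub libraries, a state shared by 34.2% of all genes. The nearest peak edges to the Psmb6 TSS were at -4940 bases in the vector library, 26886 in 1-590, -4710 in 10RA and 14942 in 25RA, negative values being upstream. Its promoter just missed the CpG-rich rule, with a GC content of 49.4% and a CpG ratio of 0.676. Among the structural beta subunits, Psmb3 was listed in 1-590 alone (23 fragments over 7.10) and Psmb4 in 25RA alone (14 over 2.91, fold 3.83, summit in a coding exon). Psmb1 was listed in vector, 1-590 and 25RA with 12, 16 and 17 fragments, and Psmb2 in vector, 1-590 and 10RA with 12, 21 and 10.

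The inducible and thymus-specific catalytic subunits, grouped in the figures as inducible beta, differed among themselves. Of the 4, 2 were listed in the vector library, 4 in 1-590, 3 in 10RA and 1 in 25RA. Psmb9, an immunoproteasome subunit, was listed in every one of the 8 H2AK119ub libraries. It lies on chromosome 17 beside Tap1, the peptide transporter of antigen presentation, whose TSS is 363 bases away on the other strand, and the listed peaks cover both promoters in part. In the 1-590 set Psmb9 had 17, 32, 28 and 22 fragments in vector, 1-590, 10RA and 25RA, over backgrounds of 4.21, 7.03, 5.84 and 5.98. Those backgrounds were 3.21 to 4.64 times the lowest of each library, and its fold lay between 3.30 and 4.24. Psmb8, the second immunoproteasome gene of that chromosome, was listed in 1-590 alone, with the summit of its stronger peak at -895 bases from the TSS (27 fragments over 6.52, fold 3.72). Psmb10 was listed in 1-590 (21 fragments over 6.69, fold 2.86) and in 10RA (18 over 5.16, fold 3.09), with summits 1266 and 1238 bases into the gene, in an intron. Psmb11, the thymus-specific subunit, was listed in vector (14 fragments), 1-590 (23) and 10RA (21), and its 10RA peak did not overlap the other peaks. Psmb10 at 2.86 and Psmb11 at 2.88 had the smallest folds of all 45 proteasome genes listed in 1-590, followed by Psmb3 at 2.96, Psmd2 at 3.28 and Psma4 at 3.30.

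The ATPases of the 19S base were all listed in 1-590 and in 25RA. Vector listed 5 of 6, 1-590 all 6, 10RA 3 and 25RA all 6. Psmc6 had 31 fragments over a background of 1.53 in vector, 43 over 3.36 in 1-590, 26 over 1.72 in 10RA and 26 over 2.17 in 25RA. Its fold of 12.7 in vector ranked 3 of 8798 listed promoters, and its 9.92 in 10RA ranked 11 of 8988. In 1-590 its fold of 10.1 ranked 153 of 12002 and in 25RA its 8.51 ranked 75 of 10400. The summits lay at -54, -38, -47 and -47 bases from the TSS in vector, 1-590, 10RA and 25RA, so all 4 fall within the capitals of the Psmc6 sequence printed above. Psmc6 had no promoter peak in the 1-1067 set. Psmc1, Psmc2 and Psmc3 were listed in vector, 1-590 and 25RA and not in 10RA. For Psmc1 the fragments were 14, 32 and 20, for Psmc2 11, 16 and 14, and for Psmc3 12, 21 and 21, in that order of libraries. Psmc4 was listed in 1-590 (35 fragments, fold 7.13), 10RA (16) and 25RA (23) and not in vector.

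The other 19S genes were listed at 8 of 11 in the vector library, 10 in 1-590, 7 in 10RA and 10 in 25RA. Psmd1 (a scaffold of the base) and the lid subunits Psmd8, Psmd11, Psmd12 and Psmd13 were listed in all 4. Psmd12 had 19, 33, 21 and 32 fragments and Psmd8 had 14, 38, 15 and 19 in vector, 1-590, 10RA and 25RA. Psmd1 had 11, 28, 8 and 15, and its 10RA peak was the only proteasome peak of the 1-590 set with a q above 0.05 (0.0576). Psmd3 and Psmd7, both lid subunits, were listed in 1-590, 10RA and 25RA and not in vector. Psmd3 had 38, 19 and 17 fragments in those 3 libraries, and Psmd7 had 21, 14 and 17. The ubiquitin receptor Psmd4 and the lid subunit Psmd6 were listed in vector, 1-590 and 25RA and not in 10RA. Psmd2, the other base scaffold, was listed in 1-590 alone, with 14 fragments. Psmd14, which cuts the ubiquitin chain off the substrate, was listed in vector (11 fragments over 1.33) and 25RA (16 over 2.04) and in neither 1-590 nor 10RA.

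Among the 6 activator and inhibitor genes, 5 were listed in the vector library, 5 in 1-590, 3 in 10RA and 3 in 25RA. Psme1 and Psme2 encode the partner subunits of the interferon-inducible 11S activator, and their listings differed. Psme2 was listed in all 8 H2AK119ub libraries, with 14, 24, 20 and 26 fragments in vector, 1-590, 10RA and 25RA. Psme1, also on chromosome 14, was listed in 1-590 alone, with 16 fragments over 4.03 (fold 3.38) and the summit in a coding exon. Psme2 shares its peak with Rnf31, whose TSS is 101 bases away on the other strand. Psme2b, a near copy of Psme2, was listed in vector with 8 fragments and in 25RA with 12. Fragments from such copies may be placed on either gene, so the Psme2b and Psme2 values are uncertain. Psme3, the nuclear 11S activator, had 16, 20 and 14 fragments in vector, 1-590 and 25RA. Psme4, which encodes another activator, had 16, 41 and 19 in vector, 1-590 and 10RA. Psmf1, which encodes a proteasome inhibitor and regulator, had 9, 20 and 13 in the same 3 libraries as Psme4. Neither Psme4 nor Psmf1 was listed in 25RA.

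Of the 7 assembly chaperones, vector and 10RA each listed 4, and 1-590 and 25RA each listed 6. Psmg1, Psmg2 and Psmg4, which help build the core, were listed in all 4. Psmg4 had 24, 34, 15 and 30 fragments in vector, 1-590, 10RA and 25RA, with folds of 8.56, 8.31, 4.91 and 8.35. Psmg3 was listed in 1-590 alone with 20 fragments. Among the base chaperones, Psmd5 was listed in 1-590 (27 fragments), 10RA (11) and 25RA (21). Psmd10 was listed in vector with 8 fragments and in 25RA with 10, and its peak also touches the promoter of Atg4a. Psmd9 was listed in 1-590 (14) and 25RA (10), with the summits of its strongest peaks 2151 and 2122 bases into the gene. In 1-590 a second, weaker Psmd9 peak at chr5:123366252-123366555 (fold 3.31) lies on the TSS.

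The rule by symbol also took in Psmc3ip and Psme3ip1, which are named for proteins they bind and are not proteasome subunits. Psmc3ip, known for its part in meiotic recombination, had 35, 16 and 19 fragments in 1-590, 10RA and 25RA. Psme3ip1 had the strongest peak of the 51 genes in the 1-590 library, with 59 fragments over 3.89 and a fold of 12.3 that ranked 25 of 12002. It had 29, 21 and 34 fragments in vector, 10RA and 25RA, with folds of 10.2, 6.24 and 8.28. The Psme3ip1 peak at chr8:95328092-95328806 has its summit in an annotated UTR and also overlaps the promoter of Rspry1, whose TSS is 80 bases away on the other strand.

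**Figure D3:**
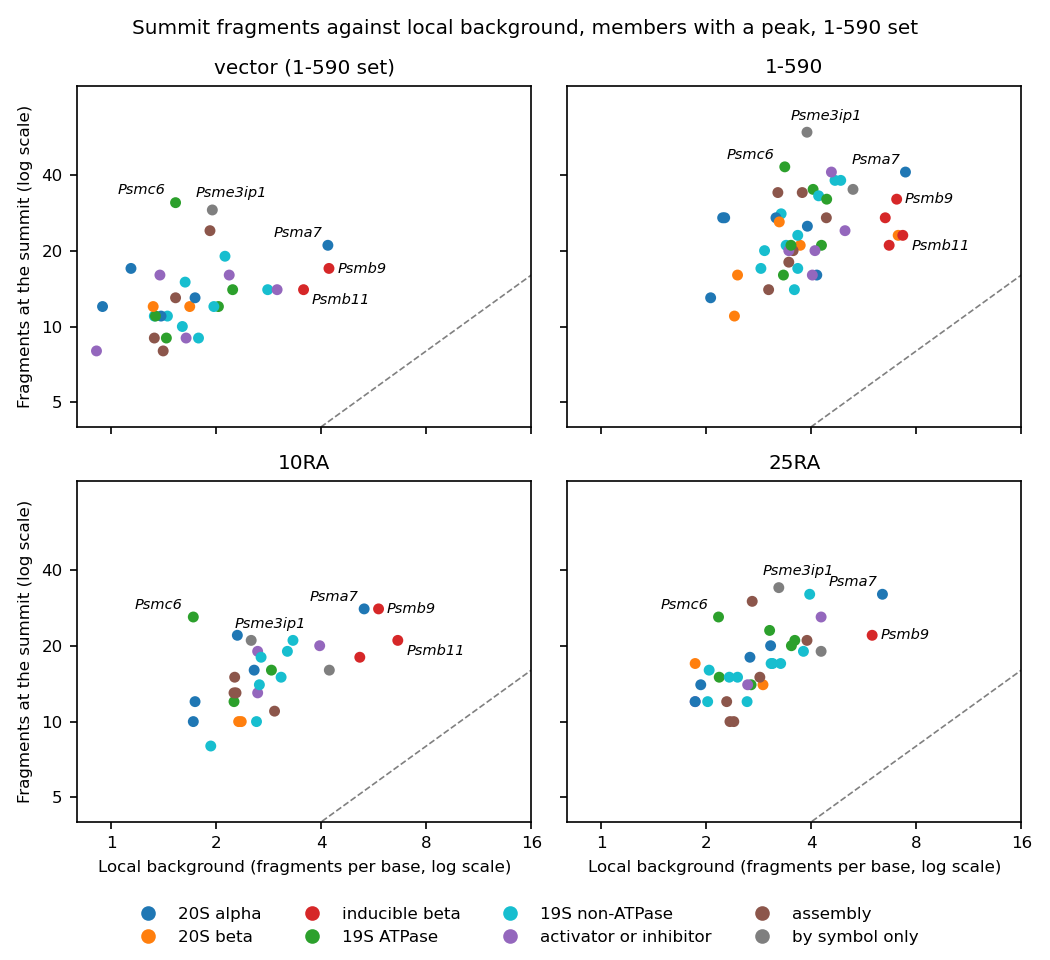
Each point is 1 proteasome gene with a promoter peak in 1 of the 4 H2AK119ub libraries of the 1-590 set, plotted by the local background and the fragments at the summit on log axes, coloured by role; on the dashed line both are equal. Psmc6 and Psme3ip1 stand at high fragments for their background, while Psmb9, Psmb11 and Psma7 stand at the high-background side.

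Set against the vector library, 1-590 listed 16 proteasome genes that vector did not (17.8% of all genes) and lacked 3 that vector listed (3.03% of all genes), with 29 in both. The 16 were Psma2, Psma4, Psmb3, Psmb5, Psmb7, Psmb8, Psmb10, Psmc3ip, Psmc4, Psmd2, Psmd3, Psmd5, Psmd7, Psmd9, Psme1 and Psmg3. By fold in the 1-590 list, the strongest were Psmc4 (7.13), Psmd3 (6.66), Psmb5 (6.36), Psmc3ip (5.74), Psmd5 (5.16), Psmd7 (5.02), Psmg3 (4.62) and Psma2 (4.58). The 3 listed in vector only were Psmd14, Psme2b and Psmd10, with 11, 8 and 8 fragments. Depth differed between these libraries as given above. With the summit fragments and background of each list scaled to the lowest background of the set, the counts were 14 (12% of all genes) and 3 (5.92%). Scaling can only remove peaks from the deeper lists and leaves the vector list unchanged. Counts listed in vector only can therefore rise or stay, and counts lacking in vector can fall or stay. At the same setting the 4 libraries listed 32 (40.5% of all genes), 43 (46.5%), 24 (32.1%) and 31 (37.1%) proteasome genes in vector, 1-590, 10RA and 25RA.

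The 10RA and 25RA comparisons with vector share the same vector library with it. 10RA listed 8 proteasome genes that vector did not (11.1% of all genes) and lacked 11 that vector listed (10.2%). 25RA listed 7 that vector did not (14%) and lacked 4 that vector listed (6.59%). At scaled depth the direction turned for 25RA, with 6 listed in 25RA and not in vector (8.16%) and 7 in vector and not in 25RA (11.6%). The scaling can shift these counts only in that direction. For 10RA the scaled counts were 6 (6.63%) and 14 (15%). In the lists as deposited, the genes listed in 10RA and not in vector were Psma8, Psmb5, Psmb10, Psmc3ip, Psmc4, Psmd3, Psmd5 and Psmd7. The 11 that 10RA lacked were Psma3, Psmb1, Psmc1, Psmc2, Psmc3, Psmd4, Psmd6, Psmd10, Psmd14, Psme2b and Psme3. Those listed in 25RA and not in vector were Psmb4, Psmc3ip, Psmc4, Psmd3, Psmd5, Psmd7 and Psmd9, and the 4 that 25RA lacked were Psmb2, Psmb11, Psme4 and Psmf1.

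Between the ASXL1 forms, 28 of the 45 genes listed in 1-590 were also listed in 10RA and 31 in 25RA. 1-590 listed 17 proteasome genes that 10RA did not (18.4% of all genes), and 10RA listed only Psma8 that 1-590 did not (4.53% of all genes). The 17 included the alpha genes Psma2, Psma3 and Psma4, the ATPases Psmc1, Psmc2 and Psmc3 and the 19S genes Psmd2, Psmd4 and Psmd6. By fold in 1-590 the strongest of them were Psma3 (8.60), Psmc1 (6.07), Psmd6 (5.33), Psmb1 (4.92) and Psme3 (4.72). 1-590 listed 14 that 25RA did not (12.9% of all genes), led by Psme4 (7.54), Psmb5 (6.36), Psmb2 (4.66), Psmg3 (4.62), Psma2 (4.58) and Psmf1 (4.12). 25RA listed 4 that 1-590 did not (5.53%), namely Psmd14 (fold 5.59), Psme2b (4.55), Psmb4 (3.83) and Psmd10 (3.24). 25RA listed 13 that 10RA did not (13.8%) and 10RA 7 that 25RA did not (7.31%). Psma2, Psma4, Psmb3, Psmb7, Psmb8, Psmd2, Psme1 and Psmg3 were listed in 1-590 and in no other library of the set, 8 of 51 where the same held for 5.65% of all genes. These 8 had 11 to 27 fragments and folds of 2.96 to 4.62 in 1-590, all below the median of 4.92 over the 45 listed members.

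Where a proteasome gene was listed in a pair of libraries of this set, the peaks nearly always overlapped. The strongest promoter peaks overlapped for 29 of 29 genes listed in both 1-590 and vector, 31 of 31 in both 25RA and 1-590 and 27 of 28 in both 10RA and 1-590, Psmb11 being the exception. Their summits were a median of 80 bases apart between 1-590 and vector and 53 bases apart between 25RA and 1-590. In the 1-1067 set, overlap with vector held for 4 of 6 shared genes in 1-1067, 5 of 6 in 34DN and 5 of 7 in 36EQ. Between the forms of that set it held for 4 of 5 (34DN with 1-1067), 6 of 7 (36EQ with 1-1067) and 5 of 5 (36EQ with 34DN). Overlap and summit gaps were not computed over all genes, so they are not shown to be particular to proteasome genes.

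In the 1-1067 set 10 or 11 proteasome genes were listed in each library. The vector library listed 10 of 51 (19.6%, Wilson 95% interval 11.0 to 32.5; 7.44% of all genes), 1-1067 listed 10 (9.21% of all genes), 34DN 11 (21.6%, 12.5 to 34.6; 6.96% of all genes) and 36EQ 10 (8.52% of all genes). Among CpG-rich promoters the members' shares were 17.5%, 17.5%, 22.5% and 20%, against 12%, 14.6%, 11.3% and 13.6% of all CpG-rich genes. Peaks with q of 0.05 or less were found at 3, 6, 6 and 6 proteasome genes (3.0%, 4.38%, 3.43% and 4.65% of all genes). The sets carry different batch labels, so the set and the batch cannot be told apart.

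In all, 17 of 51 proteasome genes were listed in 1 or more libraries of the 1-1067 set (20.9% of all genes), and 8 in 3 or more (2.92% of all genes). Psmb9 and Psme2 were listed in all 4 (1.04% of all genes). Psmb9 had 19, 17, 23 and 19 fragments and Psme2 had 19, 20, 14 and 19 in vector, 1-1067, 34DN and 36EQ. The strongest Psmb9 peak in vector did not overlap its strongest peak in 1-1067, 34DN or 36EQ, so the vector value belongs to another place. Psmb9 had a q of 0.05 or less in 34DN and 36EQ, and Psme2 in 1-1067, 36EQ and, at 0.0497, in 34DN. Psma1 was listed in vector (15 fragments), 1-1067 (12) and 36EQ (19), and Psmg4 in the same 3 libraries (14, 15 and 17). Psmd1 was listed in vector (17), 1-1067 (16) and 34DN (13). The remaining genes listed in 3 libraries were Psmd3 (15, 19 and 13 fragments in vector, 34DN and 36EQ), Psmd4 (13, 11 and 14 in vector, 1-1067 and 36EQ) and Psmd13 (13, 11 and 12 in 1-1067, 34DN and 36EQ). No Psmd4 or Psmd13 peak of this set had a q of 0.05 or less. Of the 8 genes, only Psme2 kept 3 libraries at that q, so most of these repeated listings rest on weak peaks.

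Smaller numbers of libraries listed the other 9 genes of the 17. Psmb5 was listed in 1-1067 (16 fragments, fold 4.31) and 34DN (14, fold 3.64). Its summits there, at -118 and -162 bases from the TSS, lie in the upstream sequence printed above, as do those in 1-590 and 10RA at -172 and -162 bases. Psmc4 was listed in vector (14) and 36EQ (21), Psme3ip1 in 1-1067 (14) and 36EQ (15), and Psma6 in 34DN (13) and 36EQ (12). Psmd11 had 16 and 14 fragments and Psmd12 had 18 and 14, both in vector and 34DN. Psmc5 (1-1067, 13), Psmd5 (34DN, 12) and Psmc3ip (34DN, 13) were listed in 1 library each. All 9 had been listed in 2 or more libraries of the 1-590 set. In that set 6 proteasome genes were listed in 2 libraries, 17 in 3 and 17 in 4. The matching shares of all genes were 11.6%, 14.2% and 26.7%. Most proteasome genes thus met this mark, so it does not set the 9 apart.

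Differences between libraries of the 1-1067 set ran both ways. 1-1067 listed 4 proteasome genes that vector did not (6.51% of all genes) and lacked 4 that vector listed (4.74%). 34DN listed 5 that vector did not (4.81%) and lacked 4 (5.29%). 36EQ listed 3 that vector did not (6.02%) and lacked 3 (4.94%). 34DN listed 6 that 1-1067 did not (4.27%) and lacked 5 that 1-1067 listed (6.53%), 36EQ listed 3 that 1-1067 did not (5.27%) and lacked 3 (5.96%), and 36EQ listed 5 that 34DN did not (5.59%) and lacked 6 (4.03%). In these short lists 7 of the 10 vector peaks, 4 of the 10 in 1-1067, 5 of the 11 in 34DN and 4 of the 10 in 36EQ had a q above 0.05, so a single listing is weak.

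**Figure D4:**
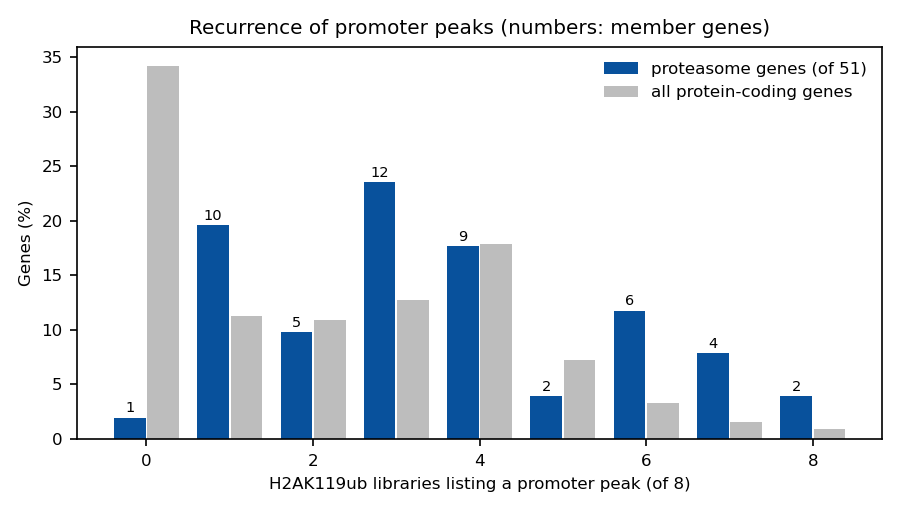
Bars give the percentage of genes by the number of H2AK119ub libraries, from 0 to 8, that list a promoter peak, for the 51 proteasome genes (counts above the bars) and for all protein-coding genes. 1 proteasome gene, Psmb6, was listed in none against 34.2% of all genes, and 2, Psmb9 and Psme2, were listed in all 8 against 0.902%.

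Over all 8 libraries, proteasome genes were spread from 0 to 8 listings. Psma1, Psmd1, Psmd13 and Psmg4 were listed in 7 (1.57% of all genes) and Psma6, Psmd3, Psmd4, Psmd11, Psmd12 and Psme3ip1 in 6 (3.29%), and 8 of these 10 are subunits of the particle. In the 1-590 set 17 proteasome genes were listed in all 4 libraries (26.7% of all genes). Neither Psmb9 nor Psme2, the genes listed in all 8, encodes a constitutive subunit, and each shares its peak with a gene on the other strand.

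The summits of the proteasome peaks lay close to the TSS. Within 500 bases of it were 90.6% of the members' summits in the vector library, 91.1% in 1-590, 89.7% in 10RA and 94.3% in 25RA, against 75.5%, 76.1%, 69.0% and 70.6% for all listed genes. In 1-590, 14 of the 45 summits fell in an annotated UTR, 9 in a coding exon, 9 in an intron and 13 outside the gene. The median fold of the listed members was 4.87, 4.92, 4.24 and 4.55 in vector, 1-590, 10RA and 25RA, against 4.17, 4.16, 3.68 and 3.75 for all listed genes. The members' median fragments were lower than those of all listed genes, at 12.5, 23, 16 and 17 against 15, 27, 18 and 20. Their local background was also lower, at 1.81, 1.81, 1.53 and 1.46 times the lowest of the library against 2.73, 2.47, 2.16 and 2.22. The proteasome peaks were thus modest in fragments and stood on a low surrounding background.

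**Figure D5:**
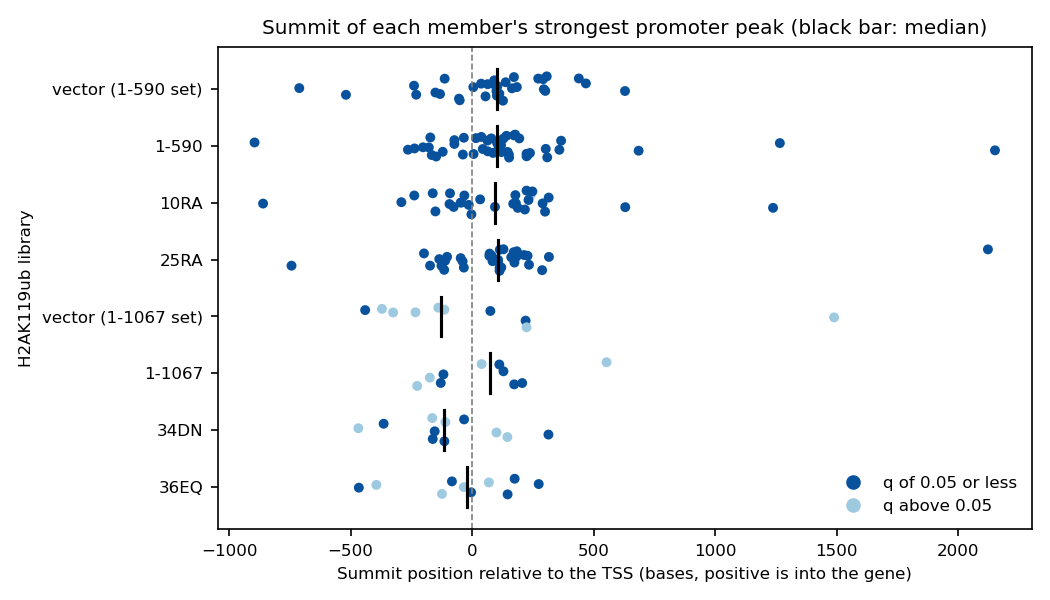
Each point is the summit of 1 proteasome gene's strongest promoter peak, by its distance in bases from the TSS (positive into the gene), in each of the 8 H2AK119ub libraries; black bars are medians, and dark and light points have q of 0.05 or less and above 0.05. Most points lie within 500 bases of the TSS in every library, and Psmd9, at 2151 bases in 1-590 and 2122 in 25RA, lies farthest into the gene.

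Several of these peaks cannot be given to 1 gene. For 13 proteasome genes a listed peak also overlapped the promoter of another gene's TSS, and for 12 of them that gene lies on the other strand. This count was not made over all genes, so whether it is unusual is not known. The closest pairs were Psmc5 with Ftsj3 at 22 bases, Psma7 with Ss18l1 at 42, Psmc2 with Dnajc2 at 52, Psma2 with Mrpl32 at 54, Psme3ip1 with Rspry1 at 80 and Psmd13 with Sirt3 at 86. A divergent neighbour within 1 kb, transcribed away from the proteasome gene, was found for 6 of 51 (11.8%) against 5.03% of all genes. These were Psma2, Psma7, Psmc2, Psmc5, Psmd10 and Psmd13.

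Short sequence motifs were searched on both strands in the 300 bases before each canonical TSS. TGACNNNGC was found in 8 of 51 proteasome genes (15.7%, against 11.2% of all genes), namely Psmb5, Psmb6, Psmc3ip, Psmc6, Psmd7, Psmd9, Psmd12 and Psmg2. CCAAT, the core of the site of the factor NF-Y, was in 19 (37.3% against 40.4%). CCGGAAG, a core of ETS family sites, was in 9 (17.6% against 7.37%, or 12.1% of CpG-rich genes). The palindromic site of nuclear respiratory factor 1, a different protein from the NRF1 of Nfe2l1, was searched as GCGC, any base and TGCGC and was in 4 (7.84% against 3.83%, or 7.49% of CpG-rich genes). The core of interferon response elements, searched as a pair of GAAA spaced by any 2 bases, was in 6 (11.8% against 4.08%), namely Psma4, Psma5, Psmb3, Psmd4, Psmd7 and Psmd9, none of them an inducible catalytic subunit. Among the 8 genes with TGACNNNGC, Psmc6, Psmd12 and Psmg2 were listed in all 4 libraries of the 1-590 set and Psmb6 in none.

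Partner genes of the proteasome, written down as a list of 28 of which 27 were found, were also mostly listed. They comprise the regulators Nfe2l1 and Nfe2l2, the core maturation factor Pomp, ubiquitin genes, cap-associated proteins, shuttle factors and the antigen transporter genes. Promoter peaks were listed at 19 of 27 (70.4%) in the vector library, 25 (92.6%) in 1-590, 16 (59.3%) in 10RA and 23 (85.2%) in 25RA, with the all-gene shares given above. As with the proteasome genes, 1-590 had the most and 10RA the fewest. The same held for all CpG-rich genes, with 87.3% listed in 1-590 and 65.1% in 10RA, so it is not particular to these genes. In the 1-1067 set 4, 8, 4 and 2 were listed in vector, 1-1067, 34DN and 36EQ, and none had a BAP1 or ASXL1 peak. Nfe2l1, which encodes NRF1, was listed in all 8 libraries, with 20, 37, 22 and 24 fragments in vector, 1-590, 10RA and 25RA and 22, 13, 19 and 18 in the 1-1067 set. Tap1, which shares its peaks with Psmb9, was the other partner listed in all 8. Pomp was listed in all 4 libraries of the 1-590 set, with 19, 26, 19 and 18 fragments.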

How the data were processed

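The analysis starts from 12 narrowPeak lists, 1 per condition. Reads were processed with MACS3 3.0.3, Bowtie2 2.5.4, fastp 0.24.0, Picard and SAMtools on mm39, per the submitters' processing notes. An E. coli spike-in normalized the CUT&RUN data, per the labels, and use of a control library is not given in the sources used here. Each list holds, as deposited by the authors, a fold (a ratio of fragments plus 1 to background plus 1 at the summit), -log10 p and -log10 q. The deposited score was not used. Fold, -log10 and rank values were read within a list only.

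Summit fragments and local background were recovered from fold and p for 100% of peaks, to a tolerance of 0.01 in -log10 p. The whole numbers cannot show whether reads were subsampled to a spike-in scale beforehand. Genes were matched by symbol to GENCODE vM39 on GRCm39, and coordinates count from 1. The strongest promoter peak by -log10 p stands for a gene. Overlap and recovery were tested on simulated data. With 1 library per condition no test between conditions was made, and counts are read beside the share of all 21738 genes. Python 3.11.15, NumPy 2.4.6, pandas 2.3.3 and SciPy 1.17.1 were used.

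The members, roles, motifs and partner genes were chosen with earlier results of these data known. Values are printed for members with a ChIP peak, the 5 largest and 5 smallest folds in 1-590, up to 8 members per pair and direction, members listed in the 1-1067 set, members listed nowhere, and 10 members always named. Alternatives were promoter width, summit position, q, list length, depth, any annotated TSS and, added after seeing the data, CpG-rich promoters. 1 partner gene's own result is not reported here.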

Additional observations from a re-analysis of the deposited data

How the results depend on the processing

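No paired analysis was possible because each condition has 1 library, and for the same reason no library could be left out. The 36 member counts (12 libraries and 24 directions of 12 pairs) were recomputed under 7 alternatives and called moved when they left a range of 1.5 times. All 36 stayed within it for promoters of 1 kb on each side, for summits inside the promoter and for lists of equal length. With promoters of 5 kb, BAP1 with 10RA listed 2 members (Psma5 and Psmg2), and 2 members were listed in 10RA and not in 1-590. At q of 0.05 or less, members listed fell to 3 in the vector library of the 1-1067 set and to 6 in each of 1-1067, 34DN and 36EQ. There, 2 were listed in vector and not in 1-1067, 1 in vector and not in 34DN, and 6 in 36EQ and not in vector. At scaled depth 7 were in vector and not in 25RA and 6 in 25RA and not in vector, which turns the direction of that pair. The scaling can shift that pair only in this direction. With any annotated TSS, ASXL1 with 1-590 listed 1 member, Psmd5. At q of 0.05 or less, 1-1067 against vector went from 4 and 4 to 5 and 2, and 36EQ against vector from 3 and 3 to 6 and 3, while 34DN with 1-1067 and 36EQ with 34DN each came to 4 and 4. The cause of these shifts was not tested. In the CpG-rich setting, added after seeing the data, 12 of 12 counts stayed within the range. That setting drops only 11 of the 51 members, and the ChIP counts were already 0, so the counts had little room to move. It does not address how members stand against other CpG-rich genes, which is given above. Member peaks rest on few fragments, 8 to 59 in the 1-590 set and 11 to 23 in the 1-1067 set.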
